A study of Mus musculus with 9 samples.

Results

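Expression of 38 marker genes of vascular endothelium, the cells that line blood vessels, was examined in the left ventricle of male mice. Members were chosen by gene symbol, as the probe sets that the deposited comparison table assigns to those symbols. They are 38 of the 23069 genes that could be tested. Gene expression was measured on 9 microarrays, 1 per sample, in groups of 3. Mice labelled Lrat-/- received a vitamin A deficient diet with no added retinol palmitate (Lrat-/- deficient) or a vitamin A sufficient diet (Lrat-/- sufficient), and wild-type mice received the sufficient diet. The sufficient diet held 250000 U/kg retinol palmitate, and each diet was given for 50 days. Lrat encodes lecithin retinol acyltransferase, which esterifies retinol for storage. No wild-type samples on the deficient diet were analysed here, so diet and genotype can be compared only along the groups named. The age, strain and kind of Lrat allele are not given in the labels, nor is it said whether each array holds RNA from a single animal. The p-values therefore measure the spread between these samples.

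The endothelium sets how blood vessels grow, branch and leak. Its identity is carried by receptors for vascular endothelial growth factor (VEGF) and angiopoietins, by adhesion proteins at cell junctions, by Notch signalling, and by transcription factors of the ETS and SOX families. Capillaries run beside nearly every heart muscle cell, so whole ventricle RNA holds an endothelial share. Retinoic acid, made from retinol, acts through nuclear receptors and is known for its part in the development of heart and vessels.

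All values are log2 signals, which RMA brings to nearly the same distribution on every array. Each gene is therefore read relative to the others, and levels of different genes are not compared. Lrat itself went against the labels. Its log2 signals were 6.84, 6.78 and 6.96 on Lrat-/- deficient arrays and 7.29, 7.34 and 7.38 on Lrat-/- sufficient arrays, against 5.81, 5.78 and 5.73 on wild-type arrays. The groups did not overlap and the arrays labelled Lrat-/- were the higher ones. In the limma test over all genes described below, Lrat differed from wild type by 1.57 ± 0.07 in Lrat-/- sufficient ventricles (adjusted p = 1.87e-05). In Lrat-/- deficient ventricles it differed by 1.09 ± 0.07 (adjusted p = 0.000275). All these signals lay under 7.53, the 95th percentile of the 5222 negative control probe sets. The sources used here do not say which part of Lrat the allele changes or whether these probes fall inside it. Whether labels were exchanged was not tested, so every genotype direction below is that of the labels.

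Array medians were 6.38 to 6.43 (log2), which the normalization holds close together, and correlations within groups were 0.991 to 0.997. Wild-type arrays 1 and 2 stood apart on the first principal component of all genes, at 28.5 and 17.5, whereas wild-type array 3 was at -4.52, among the arrays labelled Lrat-/- (-15.3 to -0.471). On the second component wild-type array 3 was the farthest out, at 22.8, against -17.8 to 2.7 for the arrays labelled Lrat-/-. Of the 38 members, 31 had a group mean above 7.53 in at least 1 group. The other 7 (Flt4, Sox17, Clec14a, Notch4, Apln, Edn1 and Tal1) lay under it in all 3 groups, where signal and background are hard to tell apart. Pecam1, Cdh5 and Tek, which define endothelium, had group means of 9.14 to 9.96, so endothelial RNA was measured in the ventricles of every group.

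Across the 38 genes, most group means were lowest on the deficient diet and highest in wild type, but no single gene passed the test over all genes. The Lrat-/- deficient mean was the lowest of the 3 group means for 29 genes, and the wild-type mean was the highest for 28. Compared with wild type, 34 of 38 genes were lower in Lrat-/- deficient ventricles, with a median log2 difference of -0.22. Compared with Lrat-/- sufficient ventricles, 29 of 38 were lower, with a median of -0.13. In Lrat-/- sufficient against wild-type ventricles 30 of 38 were lower, with a median of -0.14. Over all genes tested 50.2%, 50.6% and 50.4% were lower in these comparisons, with medians between -0.0014 and -0.0006. In whole tissue, fewer endothelial cells and less RNA per endothelial cell cannot be told apart. The comparisons share arrays, so their counts are not independent of each other.

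**Figure D1:**
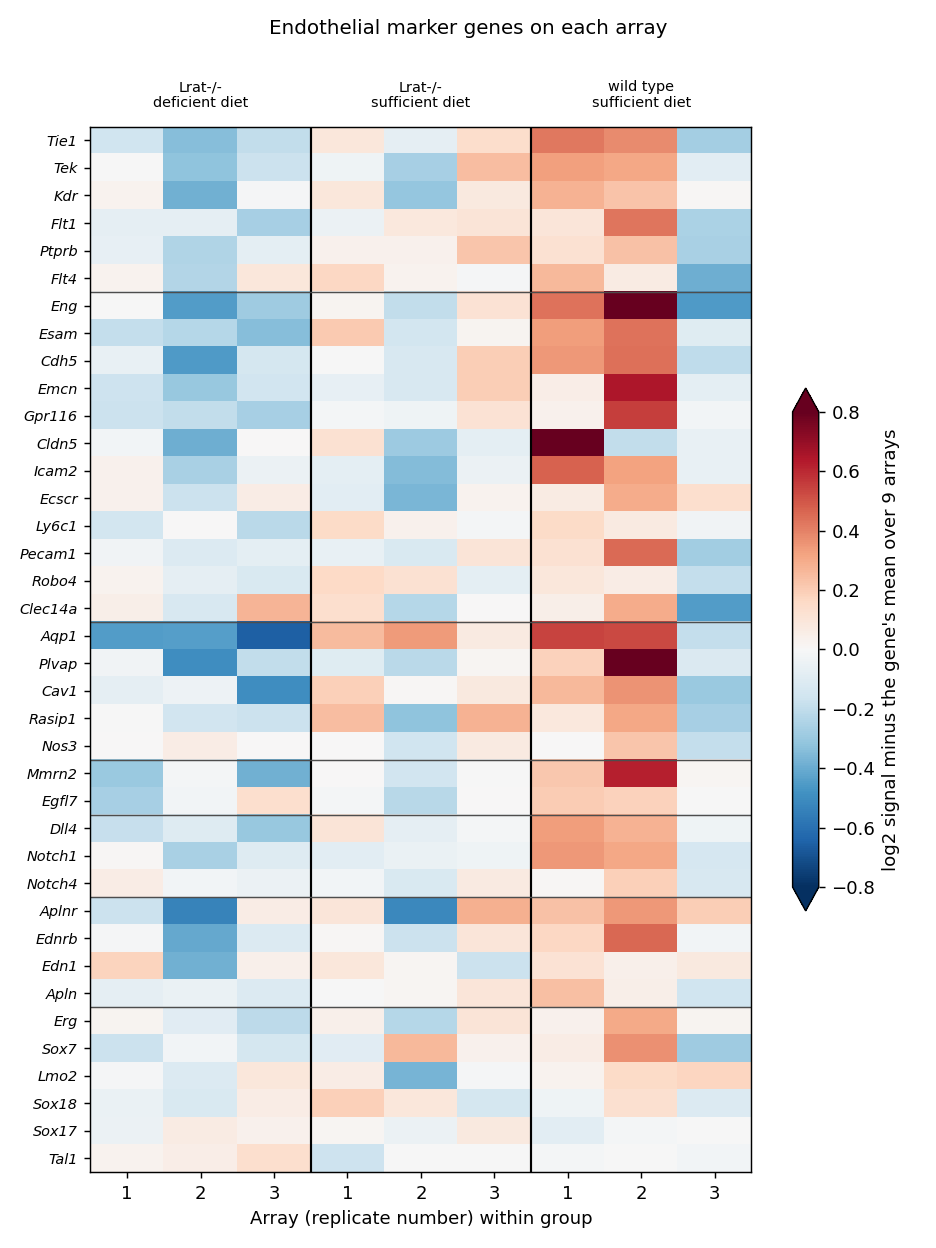
Log2 signal of each of the 38 genes on each of the 9 arrays, minus that gene's mean over all arrays, with genes in rows grouped by role and arrays in columns (3 per group). Wild-type arrays 1 and 2 are above the gene's mean (red) for 35 genes each, wild-type array 3 for 7 and the Lrat-/- deficient arrays for 12, 4 and 11.

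The wild-type arrays did not move together. Averaged over the 38 genes after centring each gene on its 9-array mean, the log2 signals were -0.06, -0.20 and -0.11 on Lrat-/- deficient arrays, 0.04, -0.11 and 0.06 on Lrat-/- sufficient arrays, and 0.20, 0.31 and -0.12 on wild-type arrays. The group means were -0.12 ± 0.07, 0.00 ± 0.09 and 0.13 ± 0.22 (SD, n = 3 each) in that order, and wild-type array 3 lay among the Lrat-/- deficient arrays. Wild-type array 2 was the highest of the 9 arrays for 20 genes and wild-type array 1 for 12, while wild-type array 3 was the lowest for 10. Without wild-type arrays 1 and 2 together, an alternative chosen after seeing the data, 20 of 38 genes were lower in Lrat-/- deficient than in wild-type ventricles (median -0.02) and 11 of 38 in Lrat-/- sufficient than in wild-type ventricles (median 0.08). Leaving out wild-type array 2 alone gave a median of -0.17 for Lrat-/- deficient and -0.01 for Lrat-/- sufficient against wild type, leaving out wild-type array 1 gave -0.21 and -0.09, and leaving out wild-type array 3 gave -0.37 and -0.27. The median for Lrat-/- sufficient against wild type was -0.08 without Lrat-/- sufficient array 2, and -0.23 with array weights. The diet contrast uses wild-type arrays only for the shared estimate of the spread, and its median was -0.05 without Lrat-/- deficient array 2.

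Most members varied together across arrays. Of the 38, 31 had a correlation above 0.5 with the mean of the other 37 over the 9 arrays, and 28 did after group means were removed. This is a description over arrays that share groups and a normalization, with no test. The 7 others were Tal1 and Sox17 (-0.35 and -0.33), Edn1, Sox18, Lmo2, Cldn5 and Robo4 (0.31 to 0.45), of which Tal1, Sox17 and Edn1 lay under the background limit. In the RefSeq gene table of GRCm38 some members are neighbours: no protein-coding gene lies between Notch1 and Egfl7, and 2 lie between Icam2 and Pecam1 and between Robo4 and Esam.

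The members were tested with limma across all 23069 genes, with Benjamini-Hochberg adjustment and a threshold of 0.05. In Lrat-/- deficient against wild type, 0 of 38 members passed, beside 0.13% of all genes, and the lowest adjusted p of a member was 0.216. In Lrat-/- deficient against Lrat-/- sufficient, 0 members passed, beside 0% of all genes, with a lowest adjusted p of 0.959. In Lrat-/- sufficient against wild type, 0 members passed, beside 0.134% of all genes, with a lowest adjusted p of 0.645. The F test over the 3 groups passed 28 genes and no member. At an unadjusted p under 0.05, 14 members were lower in Lrat-/- deficient than in wild-type ventricles (5.29% of all genes were), 1 was lower on the deficient than on the sufficient diet (2.07% of all genes) and 2 were lower in Lrat-/- sufficient than in wild-type ventricles (3.77% of all genes). No member was higher at that level in any of the 3 comparisons. These counts moved with the fit and with single arrays. In the alternatives they were taken in either direction, and the share of all genes at that level was not counted beside them. Calls over all genes moved too. Genes passing after adjustment in Lrat-/- deficient against wild type went from 30 to 76 with array weights and to 283 without wild-type array 3. With array weights the 14 became 24, the 2 became 11 and the 1 became 2, and with only the groups compared in the fit the 14 became 8 and the 1 became 7. With wild-type array 3 left out the 14 became 22, the 2 became 13 and the 1 became 6. With wild-type array 1 left out the 14 became 8 and the 2 became 1, and with wild-type array 2 left out the 14 became 5, the 2 became 0 and the 1 became 2. Dropping Lrat-/- deficient array 2 gave 6 in place of 14 and 2 in place of 1, dropping Lrat-/- deficient array 3 gave 7 in place of 14, and dropping Lrat-/- sufficient array 1 gave 6 in place of 14. Dropping Lrat-/- sufficient array 2 gave 0 in place of 2 and 4 in place of 1. The standard errors of the members' differences were 0.06 to 0.27 (median 0.14).

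**Figure D2:**
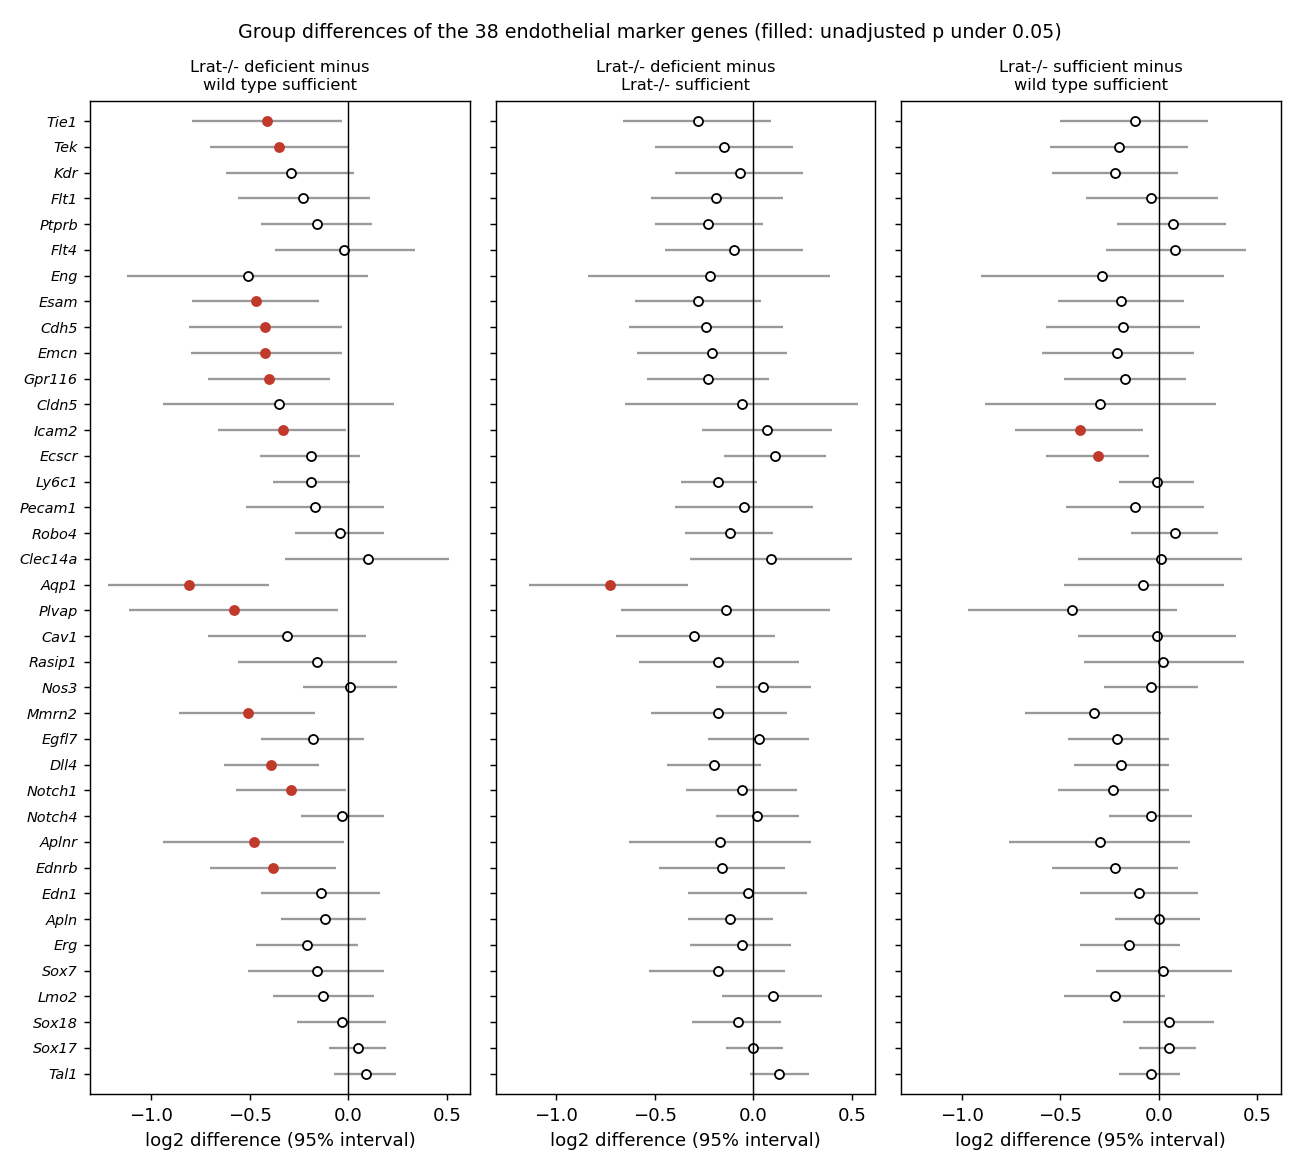
Log2 difference of each of the 38 genes (point) with its 95% interval (line) in the 3 comparisons, with genes in the same order as in the plot of signals by array. Most points lie left of 0, the medians are -0.22, -0.13 and -0.14 from the left panel to the right, and filled points mark the 14, 1 and 2 genes with an unadjusted p under 0.05.

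Some genes separated the groups array by array. Between Lrat-/- deficient and wild-type ventricles, 8 members were lower without overlap of the groups (Esam, Aqp1, Emcn, Mmrn2, Ecscr, Gpr116, Dll4 and Aplnr), as were 6.38% of all genes, and Tal1 was higher without overlap, as were 5.13% of all genes. Between the diets, 10 members were lower without overlap (Flt1, Tie1, Esam, Aqp1, Emcn, Ptprb, Gpr116, Dll4, Apln and Cav1), as were 4.94% of all genes, and Tal1 was higher, as were 4.72%. Between Lrat-/- sufficient and wild-type ventricles, only Mmrn2 and Ecscr were lower without overlap, as were 4.27% of all genes. Esam, Aqp1, Emcn, Gpr116 and Dll4 were thus below both other groups on every Lrat-/- deficient array.

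Aqp1 showed the largest difference of the 38 genes in the comparisons that involve the deficient diet. It encodes aquaporin-1, the water channel of continuous capillaries that red blood cells also carry. Its log2 signals were 10.32, 10.33 and 10.12 on Lrat-/- deficient arrays and 11.02, 11.11 and 10.84 on Lrat-/- sufficient arrays, against 11.31, 11.30 and 10.58 on wild-type arrays. All 3 deficient arrays were the lowest of the 9, and wild-type array 3 lay between them and the other arrays. The difference was -0.73 ± 0.18 (SE) between the diets, with a 95% interval of -1.14 to -0.33 and an adjusted p of 0.959 (unadjusted p = 0.00269). Against wild type it was -0.81 ± 0.18 in Lrat-/- deficient ventricles, with an interval of -1.22 to -0.40 and an adjusted p of 0.216 (unadjusted p = 0.00144), a change of -42.9% in signal. Between Lrat-/- sufficient and wild-type ventricles it was -0.08 ± 0.18 (adjusted p = 0.953). Same-numbered arrays of the diet groups differed by -0.70, -0.78 and -0.72, so the diet difference was of like size in each pair. Against wild type the difference shrank to -0.33 without wild-type arrays 1 and 2 (adjusted p = 0.607) and grew to -1.05 ± 0.10 without wild-type array 3 (adjusted p = 0.00651). In the authors' deposited table the ratio for Aqp1 was 0.657 between the diets (p = 0.0108) and 0.634 in Lrat-/- deficient over wild type (p = 0.00758).

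The 250 bases before the RefSeq start of 4 members are shown because the group means of these genes were lowest on the deficient diet. They also differ in matches to the ETS motifs CAGGAA and CCGGAA. The sequences are on the gene's strand in build GRCm38.p6, which is not the build named for the arrays. Capitals mark CAGGAA or CCGGAA on either strand, and the shorter GGAA alone is not marked.
Aqp1 (chr6:55336049-55336298, plus strand): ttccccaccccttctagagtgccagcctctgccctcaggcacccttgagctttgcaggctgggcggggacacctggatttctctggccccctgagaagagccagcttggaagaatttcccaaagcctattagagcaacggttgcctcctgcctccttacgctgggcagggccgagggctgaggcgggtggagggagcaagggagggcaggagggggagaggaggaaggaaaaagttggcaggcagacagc
Dll4 (chr2:119325534-119325783, plus strand): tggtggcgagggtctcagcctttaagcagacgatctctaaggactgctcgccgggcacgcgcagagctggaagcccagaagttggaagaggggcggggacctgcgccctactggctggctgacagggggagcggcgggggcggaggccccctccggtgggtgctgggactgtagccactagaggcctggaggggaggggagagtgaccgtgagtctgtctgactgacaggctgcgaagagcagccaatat
Tie1 (chr4:118489850-118490099, minus strand): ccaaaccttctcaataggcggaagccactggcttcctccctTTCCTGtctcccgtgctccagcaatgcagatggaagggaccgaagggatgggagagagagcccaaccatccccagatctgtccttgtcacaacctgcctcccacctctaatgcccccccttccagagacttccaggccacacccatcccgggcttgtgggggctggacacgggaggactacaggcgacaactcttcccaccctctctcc
Emcn (chr3:137340828-137341077, plus strand): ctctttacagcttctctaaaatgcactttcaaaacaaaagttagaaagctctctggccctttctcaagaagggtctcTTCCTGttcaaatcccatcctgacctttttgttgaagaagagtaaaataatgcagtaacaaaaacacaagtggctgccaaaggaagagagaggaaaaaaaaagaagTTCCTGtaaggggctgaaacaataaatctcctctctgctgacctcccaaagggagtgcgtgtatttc

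Emcn holds 2 such matches and Tie1 holds 1. The windows of Aqp1 and Dll4 hold neither motif, though both hold the shorter GGAA. RefSeq promoter windows, from 250 bases before to 50 after a start, were matched for 24 of the 38 members (32 windows, Gpr116 under its current symbol Adgrf5). CAGGAA, searched on both strands, occurred in 13 of 24 member genes (54.2%) and in 33.4% of all genes with a window (30.6% of windows). CCGGAA occurred in 1 (Kdr, 4.2%, against 16.7% of genes). AGGTCA, the half-site of nuclear receptors that include those for retinoic acid, occurred in 5 (20.8%, against 18.1% of genes). A direct repeat of AGGTCA with 5 bases between occurred in 0 member genes and in 3 of all genes with a window. The GATA core AGATAA occurred in 4 members (16.7%, against 12.7%) and the SOX core AACAAT in 3 (12.5%, against 12.2%). The E-box motif CAGCTG occurred in 3 (12.5%, against 18.3%) and the E-box motif CATCTG in 6 (25.0%, against 19.2%). These are letter matches and show no binding.

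The VEGF receptors Kdr, Flt1 and Flt4, the Tie receptors Tek and Tie1, and the phosphatase Ptprb make up 6 of the members, and all were lower on the deficient than on the sufficient diet in Lrat-/- mice, with a median of -0.17. None passed the test. Tie1, an orphan receptor that works with the angiopoietin receptor Tek, had log2 signals of 8.61, 8.43 and 8.57 on Lrat-/- deficient arrays and 8.86, 8.70 and 8.91 on Lrat-/- sufficient arrays, against 9.19, 9.15 and 8.50 on wild-type arrays. The diet groups did not overlap, whereas wild-type array 3 lay within the deficient group. Tie1 differed by -0.28 ± 0.17 between the diets (adjusted p = 0.959) and by -0.41 ± 0.17 against wild type in Lrat-/- deficient ventricles (adjusted p = 0.519; 0.04 without wild-type arrays 1 and 2). Ptprb, the phosphatase that acts on Tek and on the junction protein Cdh5, gave 8.88, 8.71 and 8.87 on Lrat-/- deficient arrays and 8.98, 8.98 and 9.17 on Lrat-/- sufficient arrays, against 9.07, 9.18 and 8.69 on wild-type arrays. Its diet groups were apart too, with a difference of -0.23 ± 0.12 (adjusted p = 0.959). Tek, the angiopoietin receptor, averaged 9.14 ± 0.16, 9.29 ± 0.26 and 9.49 ± 0.23 (SD, n = 3 each) in Lrat-/- deficient, Lrat-/- sufficient and wild-type ventricles. Kdr, the main signalling receptor for VEGF-A, averaged 8.43 ± 0.23, 8.50 ± 0.23 and 8.72 ± 0.14 in the same groups, a diet difference of -0.07 ± 0.14. Flt1, which binds and limits VEGF-A, averaged 8.95 ± 0.11, 9.14 ± 0.08 and 9.17 ± 0.34. Flt4, the VEGF-C receptor of lymphatic vessels, lay under the background limit with group means of 7.27, 7.37 and 7.29.

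Junction and cell surface genes, 12 of the members, had the lowest medians among the larger role groups against wild type, at -0.34 in Lrat-/- deficient ventricles (11 of 12 lower) and -0.19 in Lrat-/- sufficient ventricles (10 of 12 lower). Esam, an adhesion molecule of tight junctions, gave 8.92, 8.88 and 8.77 on Lrat-/- deficient arrays and 9.32, 8.96 and 9.13 on Lrat-/- sufficient arrays, against 9.44, 9.54 and 9.01 on wild-type arrays. Every deficient array was below every other array. Esam differed by -0.28 ± 0.14 between the diets (adjusted p = 0.959) and by -0.47 ± 0.14 against wild type (adjusted p = 0.372). Gpr116, an adhesion receptor of capillary endothelium, gave 9.59, 9.57 and 9.50 on Lrat-/- deficient arrays and 9.75, 9.73 and 9.88 on Lrat-/- sufficient arrays, against 9.80, 10.32 and 9.74 on wild-type arrays. It showed the same separation, with -0.23 ± 0.14 between the diets (adjusted p = 0.959) and -0.40 ± 0.14 against wild type (adjusted p = 0.451). Emcn, the sialomucin endomucin, averaged 11.43 ± 0.08, 11.64 ± 0.17 and 11.84 ± 0.38 (SD, n = 3 each) in Lrat-/- deficient, Lrat-/- sufficient and wild-type ventricles.

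Icam2 and Ecscr were the 2 members with an unadjusted p under 0.05 between Lrat-/- sufficient and wild-type ventricles, and both had slightly higher means on the deficient than on the sufficient diet. Icam2, an adhesion ligand for leukocytes, gave 8.24, 7.95 and 8.16 on Lrat-/- deficient arrays and 8.13, 7.86 and 8.16 on Lrat-/- sufficient arrays, against 8.68, 8.53 and 8.15 on wild-type arrays. Both groups labelled Lrat-/- overlapped each other and wild-type array 3. Icam2 differed by -0.40 ± 0.14 in Lrat-/- sufficient against wild type (adjusted p = 0.645), by -0.33 ± 0.14 in Lrat-/- deficient against wild type (adjusted p = 0.550) and by 0.07 ± 0.14 between the diets (adjusted p = 0.976). Ecscr, a surface protein of endothelial migration, gave 9.17, 8.96 and 9.19 on Lrat-/- deficient arrays and 9.05, 8.77 and 9.16 on Lrat-/- sufficient arrays, against 9.20, 9.43 and 9.27 on wild-type arrays. All 3 wild-type arrays were the highest. Ecscr differed by -0.31 ± 0.11 in Lrat-/- sufficient against wild type (adjusted p = 0.659), by -0.19 ± 0.11 in Lrat-/- deficient against wild type (adjusted p = 0.653) and by 0.11 ± 0.11 between the diets.

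Ly6c1, a surface antigen of mouse capillary endothelium that some leukocytes also carry, varied little. It gave 11.89, 12.04 and 11.82 on Lrat-/- deficient arrays and 12.19, 12.07 and 12.02 on Lrat-/- sufficient arrays, against 12.19, 12.11 and 12.01 on wild-type arrays. The difference between the diets was -0.18 ± 0.09 (adjusted p = 0.959) and the groups overlapped. A second probe set with this symbol, which another deposited table names Ly6c2, a close paralogue, gave 11.56, 11.73 and 11.51 on Lrat-/- deficient arrays and 11.85, 11.73 and 11.76 on Lrat-/- sufficient arrays, so which of the paralogues each signal comes from is uncertain. Of the remaining junction genes, Cdh5, Eng, Cldn5 and Pecam1 had their widest spread in wild type. Cdh5, the cadherin of endothelial junctions, averaged 9.54 ± 0.21, 9.78 ± 0.17 and 9.96 ± 0.35 in Lrat-/- deficient, Lrat-/- sufficient and wild-type ventricles. Eng, a co-receptor for transforming growth factor beta, averaged 10.55 ± 0.22, 10.78 ± 0.16 and 11.06 ± 0.65. Cldn5, the tight junction claudin of endothelium, averaged 8.07 ± 0.22, 8.13 ± 0.21 and 8.43 ± 0.60, with wild-type array 1 alone at 9.12. Pecam1, the platelet and endothelial adhesion molecule, averaged 9.61 ± 0.04, 9.66 ± 0.11 and 9.78 ± 0.36. Robo4, a receptor that stabilises vessels, differed by only -0.04 ± 0.10 between Lrat-/- deficient and wild-type ventricles, and Clec14a, a lectin-like receptor, by 0.10 ± 0.18.

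Genes of caveolae, water transport and nitric oxide differed among themselves. Plvap, the protein of caveolar diaphragms, gave 8.49, 8.02 and 8.32 on Lrat-/- deficient arrays and 8.42, 8.30 and 8.53 on Lrat-/- sufficient arrays, against 8.70, 9.46 and 8.40 on wild-type arrays. Wild-type array 2 stood far above the other 8 arrays. Plvap differed by -0.58 ± 0.24 in Lrat-/- deficient against wild type (adjusted p = 0.519), by -0.44 ± 0.24 in Lrat-/- sufficient against wild type (adjusted p = 0.753) and by -0.14 ± 0.24 between the diets. Cav1, the caveolin that shapes caveolae, averaged 10.90 ± 0.26, 11.19 ± 0.09 and 11.21 ± 0.35 (SD, n = 3 each) in Lrat-/- deficient, Lrat-/- sufficient and wild-type ventricles. Nos3, the endothelial nitric oxide synthase, averaged 8.28 ± 0.03, 8.23 ± 0.12 and 8.27 ± 0.21, and its 95% interval in Lrat-/- deficient against wild type ran from -0.23 to 0.25. Rasip1, a Ras-interacting protein needed for vessel lumens, averaged 7.98 ± 0.09, 8.16 ± 0.34 and 8.14 ± 0.29.

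**Figure D3:**
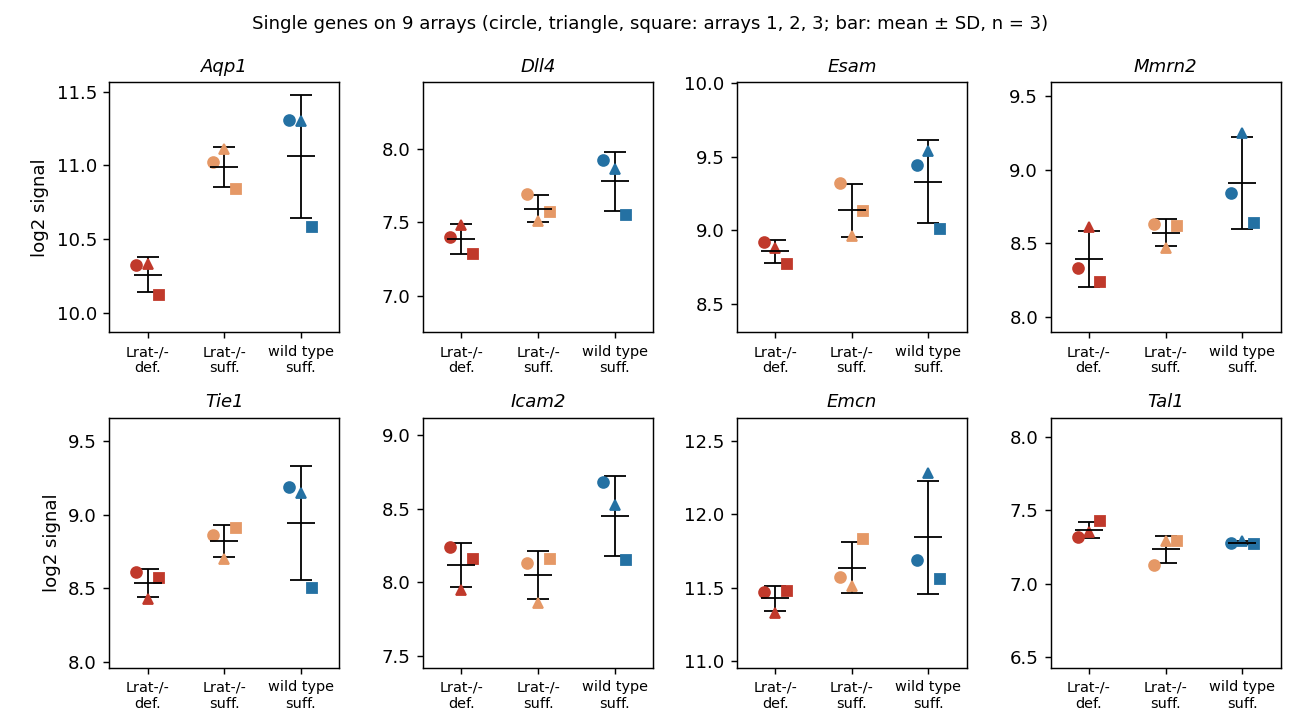
Log2 signals of 8 genes on each array (circle, triangle and square for arrays 1, 2 and 3), with the mean and SD of each group (n = 3). Each gene has its own vertical range of equal span. Aqp1, Dll4, Esam and Emcn are lowest on all 3 Lrat-/- deficient arrays, and wild-type array 3 (square) is the lowest wild-type array in every panel.

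The secreted members were Mmrn2 and Egfl7. Mmrn2, an endothelial matrix protein, gave 8.33, 8.61 and 8.24 on Lrat-/- deficient arrays and 8.63, 8.47 and 8.62 on Lrat-/- sufficient arrays, against 8.84, 9.25 and 8.64 on wild-type arrays. Every wild-type array was above every array labelled Lrat-/-, the third only just. Mmrn2 differed by -0.51 ± 0.15 in Lrat-/- deficient against wild type (adjusted p = 0.371) and by -0.33 ± 0.15 in Lrat-/- sufficient against wild type (adjusted p = 0.729). Egfl7, a factor that guides vessel tube formation, gave 10.17, 10.41 and 10.57 on Lrat-/- deficient arrays and 10.42, 10.21 and 10.44 on Lrat-/- sufficient arrays, against 10.64, 10.62 and 10.43 on wild-type arrays. Its groups overlapped in all comparisons, and it differed by -0.21 ± 0.11 in Lrat-/- sufficient against wild type (adjusted p = 0.757) and by 0.03 ± 0.11 between the diets.

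The Notch members were the ligand Dll4 and the receptors Notch1 and Notch4, and none passed the test. Dll4, the ligand that tip cells of growing vessels present, gave 7.40, 7.48 and 7.28 on Lrat-/- deficient arrays and 7.69, 7.51 and 7.57 on Lrat-/- sufficient arrays, against 7.92, 7.86 and 7.55 on wild-type arrays. Every deficient array was below every other array, and the deficient group alone had its mean under the background limit. Dll4 differed by -0.39 ± 0.11 against wild type in Lrat-/- deficient ventricles (adjusted p = 0.317), by -0.20 ± 0.11 between the diets (adjusted p = 0.959) and by -0.19 ± 0.11 in Lrat-/- sufficient against wild type (adjusted p = 0.764), where the groups overlapped and the difference was 0.04 without wild-type arrays 1 and 2. Notch1, the receptor, gave 8.34, 8.07 and 8.23 on Lrat-/- deficient arrays and 8.25, 8.28 and 8.30 on Lrat-/- sufficient arrays, against 8.68, 8.64 and 8.20 on wild-type arrays. Wild-type arrays 1 and 2 were the highest and wild-type array 3 was among the lowest. Notch1 differed by -0.29 ± 0.12 in Lrat-/- deficient against wild type (adjusted p = 0.549), by -0.23 ± 0.12 in Lrat-/- sufficient against wild type (adjusted p = 0.757) and by -0.06 ± 0.12 between the diets. Notch4, a receptor largely of endothelium, lay under the background limit with means of 7.45, 7.43 and 7.47. Of 11 other Notch ligands, receptors and targets, 10 were lower in Lrat-/- deficient than in wild-type ventricles and none passed the test. Among them Heyl, a Notch target, differed by -0.40 ± 0.13 (adjusted p = 0.418) and Hey1 by -0.26 ± 0.09 (adjusted p = 0.441).

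The peptide systems were read by Edn1 and its receptor Ednrb and by Apln and its receptor Aplnr, and all 4 were lower in Lrat-/- deficient than in wild-type ventricles (median -0.26). Ednrb, the endothelin receptor of endothelium, gave 9.37, 8.97 and 9.27 on Lrat-/- deficient arrays and 9.39, 9.21 and 9.48 on Lrat-/- sufficient arrays, against 9.55, 9.84 and 9.36 on wild-type arrays. The groups overlapped, though only just between Lrat-/- deficient and wild type. Ednrb differed by -0.38 ± 0.14 in Lrat-/- deficient against wild type (adjusted p = 0.487) and by -0.16 ± 0.14 between the diets. Aplnr averaged 8.56 ± 0.30, 8.73 ± 0.42 and 9.03 ± 0.08 in Lrat-/- deficient, Lrat-/- sufficient and wild-type ventricles, with a difference of -0.48 ± 0.20 in Lrat-/- deficient against wild type (adjusted p = 0.546). The ligands Apln and Edn1 lay under the background limit, with differences of -0.12 ± 0.10 and -0.14 ± 0.13. Of 4 other measured genes of these systems 2 were lower and 2 higher in the same comparison (median -0.07), and none passed. Ece1, which cleaves the endothelin precursor, differed by -0.50 ± 0.19 (adjusted p = 0.487) and Ednra, the other endothelin receptor, by -0.20 ± 0.16, while the ligands Edn3 (0.30 ± 0.28) and Edn2 (0.05 ± 0.10) lay under the background limit.

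Among the role groups of members, the 6 transcription factors had the medians closest to no difference. These medians were -0.08 in Lrat-/- deficient against wild type, -0.03 between the diets and -0.01 in Lrat-/- sufficient against wild type. Tal1, a factor of blood and endothelial lineages, was the 1 member higher on the deficient diet without overlap. It gave 7.32, 7.35 and 7.43 on Lrat-/- deficient arrays and 7.13, 7.29 and 7.29 on Lrat-/- sufficient arrays, against 7.28, 7.29 and 7.27 on wild-type arrays. Tal1 lay under the background limit in all groups, and differed by 0.13 ± 0.07 between the diets (adjusted p = 0.959). Lmo2, the partner of Tal1 in its complex, gave 9.65, 9.55 and 9.75 on Lrat-/- deficient arrays and 9.72, 9.29 and 9.65 on Lrat-/- sufficient arrays, against 9.69, 9.81 and 9.83 on wild-type arrays. Lmo2 differed by -0.22 ± 0.11 in Lrat-/- sufficient against wild type (adjusted p = 0.746), and Lrat-/- sufficient array 2 was the lowest. Erg, the ETS factor of mature endothelium, averaged 8.29 ± 0.11, 8.35 ± 0.18 and 8.50 ± 0.16 in Lrat-/- deficient, Lrat-/- sufficient and wild-type ventricles. Of the SOX factors that specify endothelium, Sox7 averaged 8.37 ± 0.08, 8.55 ± 0.18 and 8.53 ± 0.32, Sox18 differed by -0.03 ± 0.10 between Lrat-/- deficient and wild type, and Sox17 lay under the background limit.

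Same-numbered arrays of the diet groups deviated together over all genes, with correlations of 0.22, 0.26 and 0.21, although the labels do not say what a number marks. In these pairs 18 of 38 members were lower on the deficient diet in every pair, as were 14.9% of all genes. A fit with the number as a block and only these groups, chosen after seeing the data, gave 11 members lower at an unadjusted p under 0.05, where 4.58% of all genes were lower, and 0 after adjustment. Aqp1 had the lowest p of the members there (adjusted p = 0.367), then Tie1 (adjusted p = 0.457).

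Leaving out single arrays changed the members' calls in 1 comparison and for 1 array only. Without wild-type array 3, 5 members passed in Lrat-/- deficient against wild type, beside 1.23% of all genes: Aqp1, Tie1 (-0.63 ± 0.09, adjusted p = 0.0235), Dll4 (-0.51 ± 0.09, adjusted p = 0.0381), Esam (-0.63 ± 0.11, adjusted p = 0.0381) and Eng (-0.87 ± 0.16, adjusted p = 0.0466). Over all alternatives run for this comparison the adjusted p ranged from 0.00651 to 0.626 for Aqp1, 0.0235 to 1 for Tie1, 0.0381 to 0.856 for Dll4 and 0.0381 to 0.958 for Esam. Eng, named here after its values were seen, differed by 0.21 without wild-type arrays 1 and 2. With array weights, which give arrays that diverge over all genes less influence, only Aqp1 passed (-0.91, adjusted p = 0.0427), beside 0.329% of all genes. The weight was highest on wild-type array 2 (1.92) and lowest on wild-type array 3 (0.526), with 0.574 on wild-type array 1. This fit thus leaned on the wild-type array on which the members were highest. In the authors' deposited table, 8 members had p under 0.05 in Lrat-/- deficient over wild type. There were 2 between the diets and 2 in Lrat-/- sufficient over wild type. Of all 35556 probe sets, 2752, 1740 and 2216 had p under 0.05 in that order, so both counts of 2 members were near the share of all probe sets. The members' median ratios were 0.860, 0.914 and 0.925, and none was left after Benjamini-Hochberg adjustment over the probe sets.

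Other endothelial lists were read on the same arrays. A further 17 pan-endothelial genes were lower in 17 of 17, 14 of 17 and 16 of 17 cases in Lrat-/- deficient against wild type, Lrat-/- deficient against Lrat-/- sufficient, and Lrat-/- sufficient against wild type, and 0 passed. Procr, the receptor of protein C, gave 6.37, 6.67 and 6.73 on Lrat-/- deficient arrays and 6.54, 6.67 and 6.52 on Lrat-/- sufficient arrays, against 7.21, 7.72 and 7.21 on wild-type arrays, a difference of -0.79 ± 0.15 for the deficient and -0.80 ± 0.15 for the sufficient group (adjusted p = 0.149 and 0.136). All its group means lay under the background limit, so these differences are uncertain. Capillary genes had medians of -0.11, -0.09 and -0.02 over 7 genes. Car4, a carbonic anhydrase of heart capillaries, differed by -0.43 ± 0.10 in Lrat-/- deficient against wild type (adjusted p = 0.235), and Fabp4, a fatty acid carrier, by -0.09 ± 0.06. Of 8 measured VEGF and angiopoietin ligands and co-receptors 6 were lower and 2 higher in the same comparison, and none passed. The Tek ligand Angpt1 differed by -0.56 ± 0.16 (adjusted p = 0.354) and Figf, which encodes VEGF-D, by 0.54 ± 0.20 (adjusted p = 0.483). Pgf, placental growth factor, differed by 0.19 ± 0.18 there and by 0.52 ± 0.18 in Lrat-/- sufficient against wild type (adjusted p = 0.589). Lyve1, a marker of lymphatic endothelium and of some macrophages, gave 10.19, 10.32 and 10.16 on Lrat-/- deficient arrays and 10.99, 11.01 and 10.64 on Lrat-/- sufficient arrays, against 10.75, 10.92 and 10.70 on wild-type arrays, and differed by -0.66 ± 0.11 between the diets (adjusted p = 0.452).

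Markers of other cells were measured on the same arrays. All 6 measured genes of a list of 9 red cell genes were higher in both groups labelled Lrat-/- than in wild type and higher on the deficient than on the sufficient diet, and none passed the test. Their centred mean was 0.09, 1.25 and 0.37 on Lrat-/- deficient arrays and 0.21, 0.13 and -0.07 on Lrat-/- sufficient arrays, against -0.30, -1.0 and -0.69 on wild-type arrays. The array with the highest red cell mean, Lrat-/- deficient array 2, had the lowest member mean, and wild-type array 2 had the reverse, but wild-type array 3 was low in both. Correlations of the member mean with other lists are a description over the 9 arrays, which share groups and a normalization. They were 0.98 for the other pan-endothelial genes, 0.45 for capillary genes and -0.68 for red cell genes. Among further endothelial lists they were 0.95 for arterial, 0.88 for venous or activated, 0.79 for endocardial and 0.69 for lymphatic genes. Mesothelial genes had 0.63 and macrophage genes -0.15. For fibroblast genes the correlation was 0.88, for cardiomyocyte genes 0.75 and for pericyte and smooth muscle genes 0.41. Further endothelial lists were read in Lrat-/- deficient against wild type, deficient against sufficient diet, and Lrat-/- sufficient against wild type. Arterial genes had medians of -0.32, -0.05 and -0.18, and genes of venous or activated endothelium -0.06, -0.01 and -0.09. Lymphatic genes had medians of -0.29, -0.19 and 0, and endocardial genes -0.25, -0.06 and -0.16. Under the background limit in all groups were 4 of the 6 arterial, 3 of the 7 venous or activated, 1 of the 6 lymphatic and 0 of the 4 endocardial genes. Fibroblast genes were lower too, with medians of -0.20, -0.12 and -0.16 over 9 genes in that order. In Lrat-/- deficient against wild type 8 of 9 fibroblast, 8 of 8 cardiomyocyte and 5 of 5 lymphocyte genes were lower. Of macrophage genes 5 of 10 were lower there, and of adipocyte genes 0 of 5. All the lymphocyte and adipocyte genes lay under the background limit. Cardiomyocyte genes had medians of -0.06, -0.10 and -0.02 over 8 genes in the same order of comparisons. Genes of pericytes and smooth muscle had medians of -0.06, -0.19 and -0.05 over 9. Of that last list 7 were lower and 2 higher in Lrat-/- deficient against wild type, and none passed. There the pericyte genes Rgs5 (-0.40 ± 0.08, adjusted p = 0.149), Pdgfrb (-0.32 ± 0.09, adjusted p = 0.331) and Abcc9 (-0.31 ± 0.09, adjusted p = 0.365) were among the lower. Acta2, smooth muscle actin, differed by -0.05 ± 0.35, by -1.27 ± 0.35 between the diets (adjusted p = 0.959) and by 1.23 ± 0.35 in Lrat-/- sufficient against wild type (adjusted p = 0.472). The part of these cells in the members' differences was not tested.

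**Figure D4:**
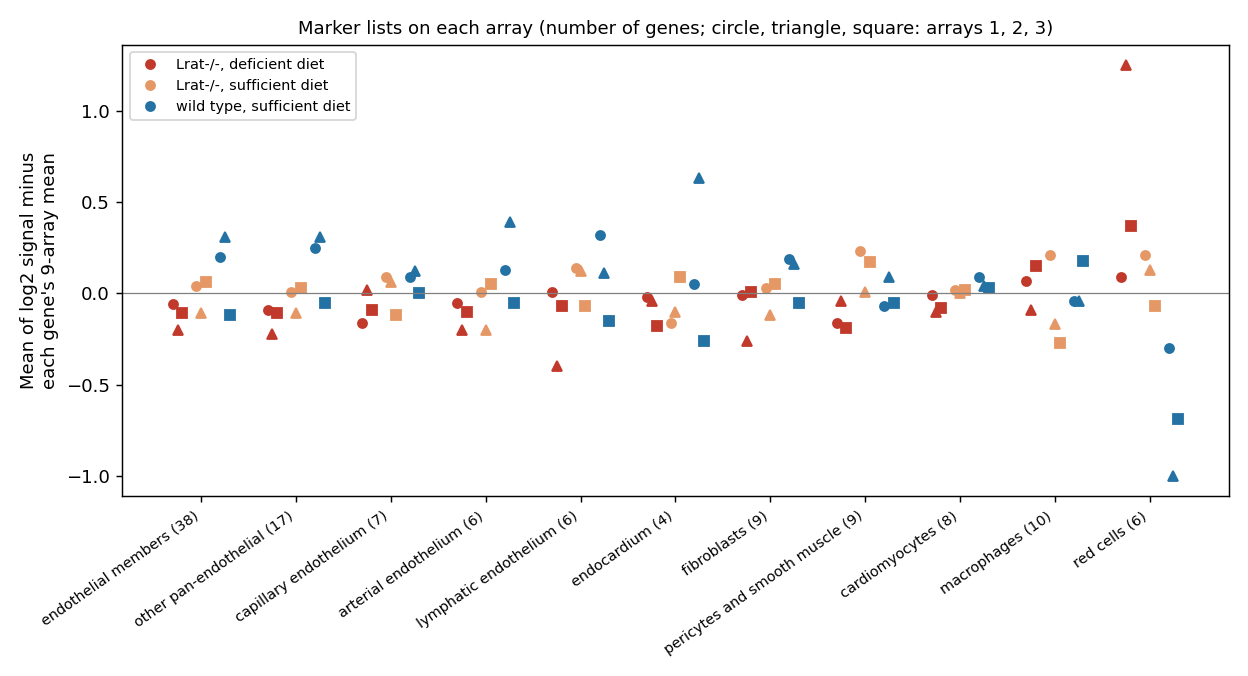
Mean over each marker list of the log2 signal minus the gene's 9-array mean, with 1 point per array (circle, triangle and square for arrays 1, 2 and 3) and colours for the 3 groups. The 38 members and the 17 other pan-endothelial genes have the same array order at the top (wild-type arrays 2 and 1, at 0.31 and 0.20 for the members), and the red cell list runs from 1.25 on Lrat-/- deficient array 2 to -1.0 on wild-type array 2.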

How the data were processed

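Left ventricle RNA was hybridised to Affymetrix mouse gene arrays. The authors deposited 1 column of log2 signals for each sample. RMA, R 3.1.2 and genome build mm8 are named in the submitters' processing notes, with no roles given. The log2 scale was read from the values. The comparison table the authors deposited gives a ratio and a p-value per pair of groups, per the file headers, and how they were computed is not stated. A further deposited table has 9 value columns that match no label and were not used.

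Of 35556 probe sets, 26107 had a symbol, and the one with the highest mean over 9 arrays stood for each of 23069 genes. Limma 3.58.1 in R 4.3.3 fitted 1 mean for each group to all 9 arrays and gave two-sided moderated tests (eBayes) of the differences, with standard errors, and p-values were Benjamini-Hochberg adjusted over all genes. The number of arrays limits precision. Plots used Python 3.11.15 and matplotlib 3.10.9.

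The members and lists were chosen with earlier results of these data known. All 38 members could be named, and values per array are given for those among the 8 lowest unadjusted p-values of any comparison, with up to 4 genes per other list and Lrat. Emcn in the plot of single genes was added outside that rule. Replicate numbers recur in the groups. Same-numbered arrays correlated at 0.21 to 0.26 in deviations between the diet groups, a pairing that comes from the data only, and at -0.14 to 0.12 against wild type. Groups of 3 were not screened for outlying arrays. Alternatives covered the groups fitted, the replicate block, array weights, normalization, low-signal filters, probe sets, the prior and each array left out.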

Additional observations from a re-analysis of the deposited data

How the results depend on the processing

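Of 772 recomputed values for 40 results, 705 met the criterion for no change: direction and side of the threshold for a tested gene, within 1.5 times for a count, and the same sign and within 0.144 (the within-group SD of the member mean) for a median. This does not mean that sizes held, since Icam2 went to -0.10 and Mmrn2 to -0.07 in Lrat-/- sufficient against wild type without wild-type arrays 1 and 2. The criterion is also wide, as 0.144 is near the size of the medians themselves. In the same comparison without wild-type array 2, a median of -0.01 in place of -0.14 met it, as did 21 in place of 30 members lower. A gene that did not pass in the main fit could change its side of the threshold only by passing. In 4 cases a gene's difference turned in sign. Between the diets, 0 genes and 0 members passed under every alternative run (478 genes lower and 532 higher at an unadjusted p under 0.05), and Aqp1 stayed between -0.81 and -0.66. With the replicate block the genes passing were 22 in Lrat-/- sufficient against wild type and 25 in Lrat-/- deficient against wild type, and 0 members passed. With only the groups compared, 7 genes passed in Lrat-/- deficient against wild type and 5 in Lrat-/- sufficient against wild type, where fewer arrays estimate the spread. Array weights passed 76 genes and 1 member in Lrat-/- deficient against wild type.

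Leaving out single arrays gave 11 to 283 genes and 0 to 5 members in Lrat-/- deficient against wild type (283 and 5 without wild-type array 3), with a median of -0.37 to -0.17, and 11 to 109 genes in Lrat-/- sufficient against wild type. For any difference among the 3 groups, 28 genes passed, against 17 with the replicate block, 47 with array weights, 18 with genes at log2 7 or more, and 11 to 104 without single arrays. Without wild-type arrays 1 and 2, chosen after seeing the data, 20 members were lower in Lrat-/- deficient against wild type (median -0.02) and 11 in Lrat-/- sufficient against wild type (median 0.08). Tie1 then turned to 0.04 in the first of these, and Plvap to 0.02, Notch1 to 0.08 and Dll4 to 0.04 in the second. The cause was not tested. At 3 arrays per group and standard errors near 0.14, differences of the size of the members' medians could not be resolved for single genes.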
